A study of Rattus norvegicus with 56 samples.

Results

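Gene expression in rat hippocampal neuron cultures was compared between intermittent theta burst stimulation (iTBS) and sham, 48 h after stimulation ended. The comparison used 7 of the 56 arrays of the study, chosen by their labels alone: 4 arrays labelled iTBS and 3 labelled sham at that time point. All the cultures were primary hippocampal neurons prepared from embryos (E18) of Sprague-Dawley rats, and no genotype or drug distinguished the groups. The iTBS plates lay centred on an inverted magnetic coil, and the sham plates sat in the incubator with the coil at a distance. In the study as a whole, cultures received 1 Hz stimulation, iTBS or sham and were collected at 48 h or at other times. With a further group labelled CTR, this made 16 groups in all. Nothing in the labels says whether arrays of a group came from separate cell preparations. The p-values therefore measure only the spread between arrays of a group, which may be technical. That spread, and each standard error (SE) below, was estimated over all 55 arrays used in 16 groups, not from the 7 compared arrays alone. The cultures are dissociated cells without the layered circuit of the hippocampus, and total RNA was taken from the whole dish, so fewer cells of a type and less RNA per cell cannot be told apart.

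Transcranial magnetic stimulation drives neurons by inducing an electric field. Theta burst patterns deliver short high-frequency bursts repeated at the theta rhythm, and such patterns are known for inducing lasting changes of synaptic strength. Neuronal activity first switches on immediate-early genes, which encode transcription factors such as Fos and Egr1 and the synaptic regulator Arc. A later wave then includes secreted factors such as Bdnf, and longer-lasting adjustment can involve glutamate receptors, GABA receptors and ion channels. A collection at 48 h falls long after the first wave is known to subside.

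No gene passed the test. Of 35694 probes measured above background in at least 3 arrays, 0 (0.0%) had an adjusted p under 0.05 for iTBS against sham (limma with Benjamini-Hochberg adjustment), and every probe had an adjusted p that rounds to 1.00. Without adjustment, 636 probes (1.78%) had a p under 0.05, of which 251 (0.703%) were higher and 385 (1.08%) lower after iTBS. In 158 probes (0.443%) all 4 iTBS arrays lay above all 3 sham arrays, and in 356 (0.997%) all 4 lay below. The median log2 difference over all probes was -0.03. All log2 differences below are iTBS minus sham, on the scale of the log2 signal after each array was brought to the same mean and spread, and a value of 0 on that scale is the mean probe of an array.

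The arrays followed the order in which samples were numbered more closely than the treatment. The sample numbers repeat the same order of groups 4 times, and these runs are called series A to D here. At 48 h, iTBS had 1 array in each series, while sham had arrays in A, C and D and none in B. Both arrays of series A were on slide 2, and those of C and D were on slide 7. The iTBS array of series B was the only one of the 7 on slide 4. Series and slide therefore cannot be told apart for A and B. The 2 arrays of one series deviated from their group means together, with a correlation across probes of 0.43 in A, 0.28 in C and 0.67 in D. The iTBS array of series B was dim: 66.1% of its spots were well above background, the lowest of the 55 arrays used, against 69.3% to 77.5% in the other 6. When each series within a time point was fitted as a block, 3056 probes (8.56%) had an unadjusted p under 0.05 and 0 (0.0%) an adjusted one. Pair values of series A, C and D are given for many of the results below. Unless the blocked fit is named, each SE below is from the fit without blocks and includes the spread between series. Single arrays also set the direction of most gene lists described below: the median of 27 of 38 lists took the other sign when some 1 array was left out, 18 of them without the sham array of series D and 7 without the iTBS array of series B. In 11 lists no single omission turned the sign.

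The pairs did not move alike. Across probes, the iTBS minus sham difference of series A correlated with that of D at r = 0.26, but with that of C at r = -0.17, and C with D at r = -0.11 (a description across genes, which are not independent). The SD of the differences was 0.74 in A, 0.50 in C and 0.59 in D. The pair of series C was the closest, with a difference of more than 1 on the log2 scale in 5.32% of probes, against 13.4% in A and 8.21% in D. In all 3 pairs, 3299 probes (9.24%) were higher and 3749 (10.5%) lower.

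Among probes that carry a gene symbol, that were well above background in all arrays of at least one group and whose groups did not overlap, the 10 higher and 10 lower with the smallest p are described next; none passed the test. The higher genes differed by 0.27 to 0.69. Ybx1, which encodes a Y-box protein that binds RNA and DNA, had levels of 8.21, 8.26 and 7.94 in the sham arrays of series A, C and D. Its iTBS levels were 8.66, 8.48, 8.27 and 8.30 in series A to D. The groups were separated by 0.01 at their nearest point, in series C, and the difference was 0.29 ± 0.15 (SE). Wtap, a subunit of the complex that methylates adenosines in mRNA, stood at 2.62, 2.54 and 2.57 in sham. After iTBS it stood at 3.14, 3.15, 2.69 and 2.99, a difference of 0.42 ± 0.21. Its sham arrays were tight (SD 0.04, n = 3), and its iTBS arrays spread wider (SD 0.21, n = 4). Cdk12, a kinase of the RNA polymerase II tail, gave 0.29, 0.38 and 0.34 in sham and 0.79, 0.75, 0.92 and 1.20 after iTBS. Its pair differences of 0.50, 0.54 and 0.86 had the highest minimum of these 10.

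For several of the other 7 higher genes the difference was smaller without the dim array. Rap2a, a small GTPase of the Ras family, was at 0.76, 0.85 and 0.54 in sham and 1.28, 1.94, 0.88 and 0.89 after iTBS. Its difference of 0.53 ± 0.23 became 0.30 without the iTBS array of series B. Myorg, a glycosidase known from astrocytes, went from 0.69 ± 0.36 to 0.42, and Car14, a membrane carbonic anhydrase, from 0.56 ± 0.26 to 0.33 on the same omission. Cd96, a receptor best known from T cells and natural killer cells, differed by 0.52 ± 0.25, and by 0.34 without it. Sfta2, a surfactant-associated protein, went from 0.49 ± 0.26 to 0.35. The difference of Ybx1 was 0.19 without the sham array of series D. Szrd1 (0.36 ± 0.19) and Mpv17 (0.27 ± 0.15), a protein of the inner mitochondrial membrane, were at 0.33 and 0.25 without the series B array, but Szrd1 was at 0.21 without the sham array of series D and Mpv17 at 0.12 without that of series A. All 10 were higher in 3 of 3 pairs, as the absence of overlap requires.

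The lower genes included both bright and dim probes. Ate1, which attaches arginine to proteins and so marks them for degradation, had sham levels of 5.53, 5.01 and 5.51. The iTBS levels were 4.51, 4.82, 4.99 and 4.62, a difference of -0.61 ± 0.21. Pfkfb2, an enzyme that sets the level of a glycolytic regulator, was at 5.71, 5.39 and 5.50 in sham and 4.93, 5.19, 5.37 and 4.94 after iTBS (-0.42 ± 0.15). In both genes series A and D carried the separation, with differences of -1.02 and -0.89 for Ate1 and -0.78 and -0.56 for Pfkfb2. The pair of series C differed by only -0.01 and -0.02. Cbx7, a subunit of the Polycomb repressor, stood at 3.08, 2.68 and 3.26 in sham against 2.46, 2.13, 2.55 and 2.51 (-0.59 ± 0.25). Slc40a1, the iron exporter ferroportin, stood at -0.13, -0.15 and -0.10 in sham and at -1.19, -0.69, -0.57 and -0.29 after iTBS, a difference of -0.56 ± 0.21. These 4 probes were well above background in all 7 arrays.

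The remaining lower genes were near the detection limit in iTBS cultures. Cdx2, an intestinal homeobox factor, was well above background in 3 of 3 sham and 0 of 4 iTBS arrays, with measured means of -2.67 and -4.32. Its sham arrays read -1.37, -3.50 and -3.16, so the size of the difference rested on series A. It was -0.99 without that sham array, and no fold is given. Lcn8, a lipocalin, and the uncharacterised LOC102556316 were above background in 1 of 4 iTBS arrays each, with differences of -1.27 ± 0.34 and -1.35 ± 0.49. Msh4, a meiotic recombination protein, and Slc25a27, a mitochondrial carrier, were above background in 2 of 4 (-0.81 ± 0.31 and -1.33 ± 0.50), and the immune ligand gene Micb in 3 of 4 (-1.11 ± 0.43). The difference of Msh4 was -0.35 without the iTBS array of series B. With another background correction (normexp) the differences were smaller, at -0.30 for Cdx2, -0.16 for Lcn8, -0.23 for LOC102556316, -0.15 for Msh4, -0.32 for Slc25a27 and -0.44 for Micb. Slc40a1, although above background in all 7 arrays, went from -0.56 to -0.25 under it, while Ate1 was at -0.60, Pfkfb2 at -0.40 and Cbx7 at -0.52.

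**Figure D1:**
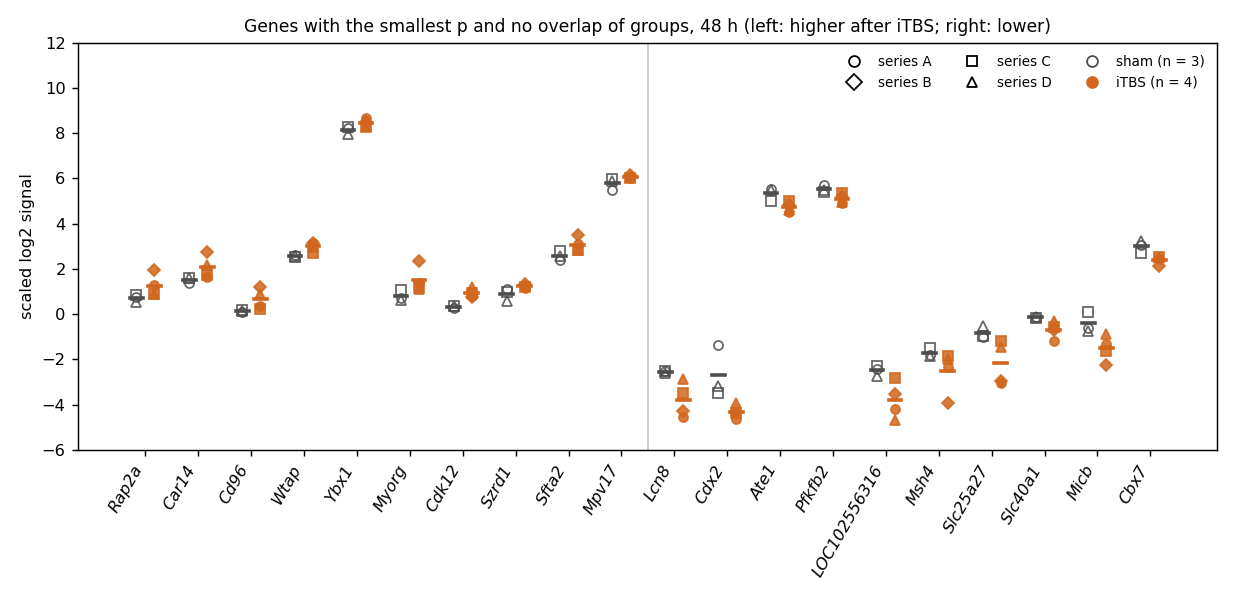
Scaled log2 signal (y axis) of the 20 named genes in each array; open grey symbols are the 3 sham arrays, filled orange symbols the 4 iTBS arrays, shapes mark the series and bars the group means. Groups do not overlap because that chose the genes; the iTBS array of series B (diamonds) is the highest iTBS array for Rap2a, Car14, Cd96 and Myorg, and the iTBS arrays of Lcn8, Cdx2 and LOC102556316 sit near the bottom of the scale.

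Immediate-early genes showed no common shift. Of 20 measured, 5 had a higher and 15 a lower mean after iTBS, with a median of -0.18 against 0.01 over all 13888 genes; 0 passed the adjusted test and 0 had an unadjusted p under 0.05. Without the iTBS array of series B the count was 11 higher and the median 0.08, and without the sham array of series D 15 were higher and the median was 0.24. Without the iTBS array of series D 2 were higher and the median was -0.41. Pair medians were -0.04, 0.17 and -0.09, and other scalings left the median over all arrays between -0.20 and -0.14. Fos ran with the series: -0.63, 1.13 and 2.78 in the sham arrays of A, C and D, and 0.47, -1.25, 1.5 and 3.14 in the iTBS arrays of A to D. Over all arrays the difference was -0.13 ± 1.26, yet within pairs iTBS was higher by 1.10, 0.36 and 0.37. Over all arrays but the sham array of series D the difference was 0.71, and without the sham array of series A it was -0.99. In the blocked fit it was 0.57 ± 0.31 (adjusted p = 0.61). Egr1 spanned 1.48 to 4.58 in sham and 1.01 to 4.36 after iTBS, with pair differences of -0.14, 0.54 and -0.23. Arc differed by 0.51 ± 1.09, and by 0.60, -0.11 and 0.23 in the pairs. Npas4, an activity-dependent transcription factor, had the smallest p of the list at -1.42 ± 1.27 but was above background in 2 of 3 sham and 1 of 4 iTBS arrays. For Fos and Egr1, both groups spanned about the same range from series to series, and the difference between the groups was smaller than that spread.

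The later activity-regulated genes were also mixed. Of 25, 10 were higher, with a median of -0.07 (0.04 without the sham array of series D) and pair medians of -0.15, -0.02 and 0.03. Sik1, a kinase induced by cyclic AMP, had the smallest p at -0.51 ± 0.42; its sham arrays read 2.45, 1.56 and 1.17 and its iTBS arrays 1.11, 1.37, 1.52 and 0.86. The sham array of series A was the highest of these, and the difference was -0.15 without it. Bdnf was at 2.21, 2.08 and 3.18 in sham and at 2.92, 1.99, 2.03 and 3.71 after iTBS, a difference of 0.17 ± 0.79. Its pairs differed by 0.71, -0.06 and 0.53, so that series A and D were higher and series C was not. Of 14 neurotrophin and receptor genes 4 were higher (median -0.09), with pair medians of 0.15, -0.03 and -0.20. Without the sham array of series D 8 of the 14 were higher and the median was 0.11.

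Metabotropic glutamate receptor genes differed by -0.40 to 0.66. Grm3, a receptor that inhibits adenylyl cyclase, was at 2.46, 2.53 and 1.82 in sham and 3.63, 2.53, 2.44 and 3.11 after iTBS. That is a difference of 0.66 ± 0.27, built from 1.18 in series A, -0.08 in C and 1.29 in D. Grm5, which couples to phospholipase C, had the same arrangement of pairs: 1.90, -0.08 and 1.14. Its sham arrays lay between 2.66 and 3.08, and its iTBS arrays read 4.72, 1.93, 2.57 and 4.21. The iTBS arrays of A and D were thus the highest and that of B the lowest of all 7, for a difference of 0.51 ± 0.54 that was 0.06 without the iTBS array of series A and 0.98 without that of B. Over the 8 metabotropic genes 5 were higher, with a median of 0.14, and of 0.08 to 0.11 under other scalings.

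Ionotropic receptors had medians near 0, with members that differed in both directions. The 13 AMPA and kainate receptor genes had a median of -0.06 with 5 higher and a range of -0.64 to 0.52. Grik5, a kainate receptor subunit, was at 7.63, 8.14 and 7.74 in sham and 8.56, 8.77, 8.07 and 8.00 after iTBS, a difference of 0.52 ± 0.26 with the groups overlapping in series C. The 7 NMDA receptor genes had a median of -0.08 with 3 higher and a range of -0.65 to 0.55, and the median was 0.05 without the iTBS array of series B. Grin1, the obligatory NMDA subunit, differed by 0.44 ± 0.33, of which 0.98 came from series A against -0.12 and 0.04 in C and D. Grin2a differed by -0.08 ± 0.41, and Grin3b, above background in 2 of 3 sham and 2 of 4 iTBS arrays, by -0.65 ± 0.44.

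GABA receptor subunits were as evenly divided. Of 15, 7 were higher with a median of -0.02, and the median changed sign, to 0.01, with normexp background correction and to 0.06 and 0.07 without the iTBS arrays of series B and C. Gabrq, the theta subunit, was at 2.92, 3.11 and 2.64 in sham and 3.83, 4.61, 2.61 and 3.55 after iTBS, a difference of 0.76 ± 0.63 that was 0.91, -0.50 and 0.91 in the pairs. The delta subunit Gabrd, found in receptors outside the synapse, differed by 0.05 ± 0.15 and Gabrb1 by 0.13 ± 0.17. Of 18 genes of inhibitory neurons 8 were higher (median -0.03, and 0.12 without the sham array of series D). Lhx6, a factor of interneuron development, was at 0.46 ± 0.23 over all arrays and at 0.24 without the iTBS array of series B.

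**Figure D2:**
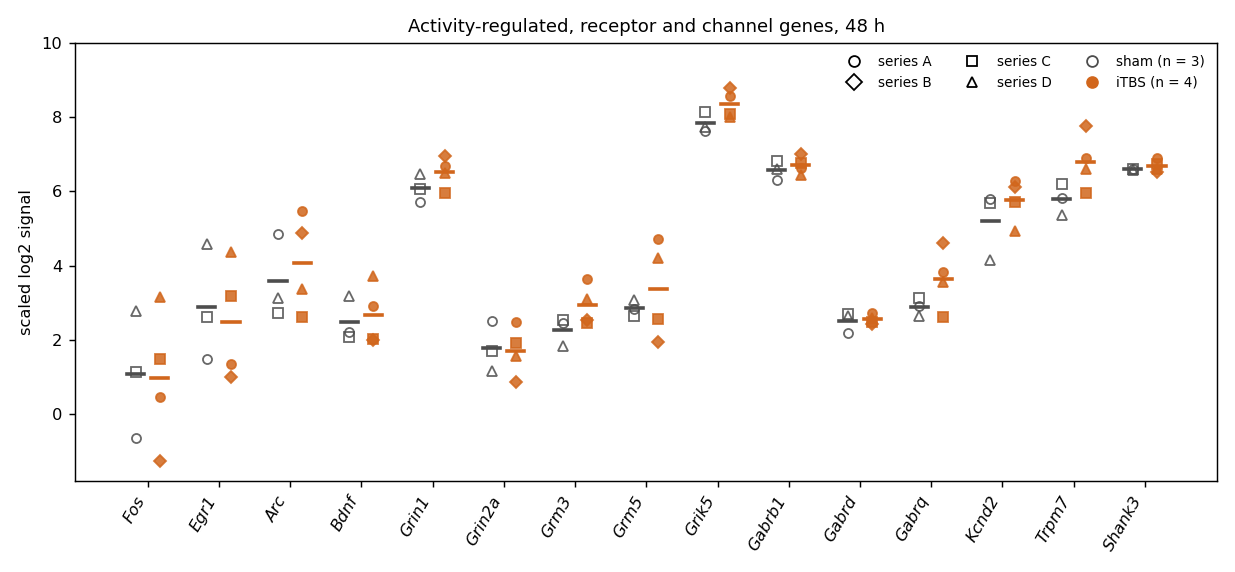
Scaled log2 signal (y axis) of activity-regulated, receptor and channel genes in each array, with symbols as in the plot of the named genes and bars at the group means. Fos, Egr1 and Arc are spread by series (shapes), from -0.63 to 2.78 for Fos in sham alone, while for Grm5 and Grm3 the iTBS circles and triangles of series A and D lie above their sham counterparts and the squares of series C do not.

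Channels and synaptic proteins gave single genes without a group shift. Of 45 potassium channel genes 16 were higher (median -0.06). Kcnd2, which carries the transient dendritic potassium current, stood at 5.79, 5.67 and 4.14 in sham and 6.27, 6.12, 5.70 and 4.94 after iTBS, higher by 0.48, 0.03 and 0.80 in the pairs and by 0.55 ± 0.27 over all arrays. Its lowest array was the sham array of series D, and the difference was 0.02 without it. Of 23 sodium and calcium channel genes 10 were higher (median -0.06). Cacna2d2, an auxiliary calcium channel subunit, had groups that did not overlap (-0.80 ± 0.43) but was above background in 2 of 4 iTBS arrays, and normexp correction brought it to -0.13. Presynaptic release genes had 12 of 27 higher (median -0.06), led by the vesicle SNARE Vamp1 at -0.33 ± 0.24, lower in 3 of 3 pairs. Postsynaptic scaffold genes had 12 of 24 higher (median 0.01); Shank3 differed by 0.10 ± 0.23.

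The study's own learning and memory genes held one of the larger bright differences. That list was taken from the study's tables, which were chosen on these samples among others, so it is no independent evidence of a direction. Trpm7, a channel fused to a kinase that passes magnesium and calcium, was at 5.83, 6.20 and 5.37 in sham. After iTBS it was at 6.89, 7.75, 5.94 and 6.59. The difference was 1.00 ± 0.36 over all arrays, 0.68 without the iTBS array of series B, and 1.06, -0.25 and 1.22 in the pairs, so the series C iTBS array lay below its sham partner. Of the 13 genes 9 were higher with a median of 0.29, again with a negative pair median (-0.10) in series C. Ptprz1, a receptor phosphatase, differed by 0.30 ± 0.34, and by 0.56, 0.05 and 0.30 in the pairs. The study's GABA signaling genes (5 of 9 higher, median 0.05), glutamate signaling genes (10 of 16, median 0.05) and Alzheimer disease genes (9 of 12, median 0.06) were chosen the same way and lay near 0. Bad, a promoter of cell death, was the Alzheimer gene with the smallest p, at 0.47 ± 0.28.

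Ribosomal and respiratory genes were mostly higher over all 7 arrays, while the pairs split in direction. Of 75 cytosolic ribosomal protein genes 67 were higher after iTBS, with a median of 0.17, where 51.9% of all genes were higher. Their mean level was 9.92, 9.78 and 9.87 in the sham arrays of A, C and D and 9.84, 10.76, 9.87 and 9.61 in the iTBS arrays of A to D. The one array that stood above the rest was the dim one of series B. Without it, 21 of 75 were higher and the median was -0.10; in the pairs the medians were -0.09, 0.11 and -0.29, with 29, 57 and 10 of 75 higher. Other scalings differed in this. With quantile scaling and normexp 36 and 35 of 75 were higher. With scaling by the 75th percentile 51 were higher, and on the deposited z-scores 64. Fau, a ribosomal protein made as a fusion with a ubiquitin-like protein, had the smallest p at 0.46 ± 0.19, and 0.28 without that array.

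The series B array also weighed on the respiratory chain genes. Of 38 genes of complexes II to V 33 were higher (median 0.11), against 11 of 38 and a median of -0.13 without the iTBS array of series B. The count was 18 of 38 with quantile scaling or normexp, 25 with scaling by the 75th percentile and 27 on the deposited z-scores. Uqcr11, a small subunit of complex III, read 8.28, 8.14 and 7.91 in sham and 8.57, 9.51, 8.07 and 8.28 after iTBS; its difference was 0.50 ± 0.24, and 0.20 without the array at 9.51. Complex I genes had 25 of 33 higher (median 0.15), then 17 of 33 and a median of 0.01 without that array, but the median was 0.07 with quantile scaling and 0.09 with normexp. Their pair medians were 0.10, -0.04 and -0.03. Ndufs3, a core subunit of complex I, differed by 0.33 ± 0.16 and by 0.57, -0.08 and 0.24 in the pairs.

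**Figure D3:**
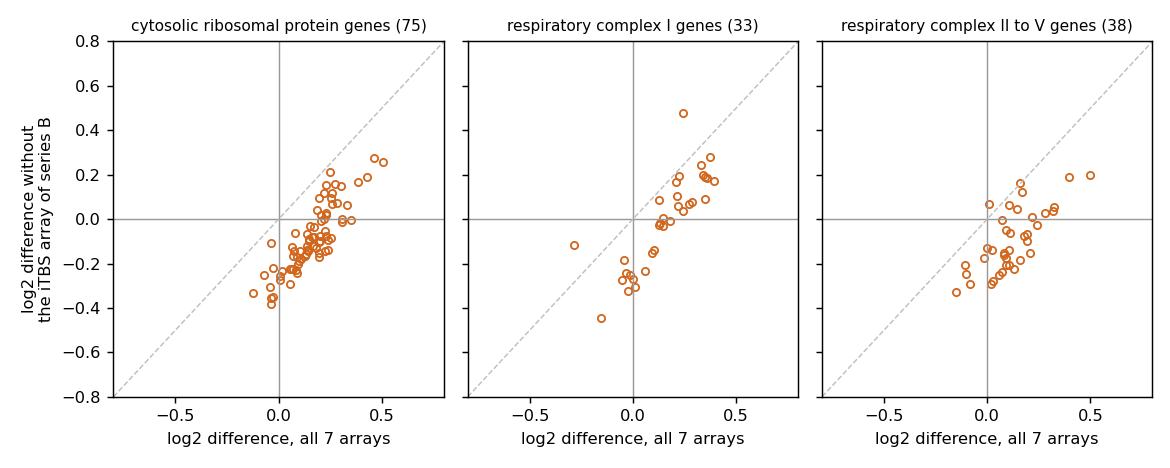
Log2 difference, iTBS minus sham, of each ribosomal and respiratory gene over all 7 arrays (x axis) and without the iTBS array of series B (y axis); each point is a gene, and the dashed line marks equal values. Nearly all points lie under the dashed line and most ribosomal points lie right of the vertical and below the horizontal zero line, as 67 of 75 genes higher became 21 of 75.

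Genes of the endoplasmic reticulum and integrated stress response had a positive median in every pair, of unequal size. These genes respond when misfolded proteins or a shortage of amino acids slow translation. Of 26, 19 were higher with a median of 0.16, and the median was 0.54 in series A, 0.14 in C and 0.03 in D. The median was 0.26 without the iTBS array of series B and 0.08 to 0.12 under other scalings. Without the sham array of series A it was -0.20, with 9 of 26 higher, and without the iTBS array of series D -0.04, with 12 of 26, while without the sham array of series D it was 0.44. Higher in all 3 pairs were 8 of 26 and lower in all 3 were 0 of 26, where 8.97% and 11.1% of all genes were. Sdf2l1, a chaperone cofactor, had the smallest p: 4.78, 6.07 and 4.89 in sham and 5.75, 5.81, 6.15 and 5.03 after iTBS, a difference of 0.44 ± 0.31. Most of that came from series A (0.98, against 0.08 and 0.13). Eif2ak3, the kinase PERK that senses misfolded protein, differed by -0.02 ± 0.40. None of the 26 had an unadjusted p under 0.05.

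Other metabolic and stress lists had medians of -0.12 to 0.09. Cholesterol synthesis genes had 18 of 22 higher but a median of 0.09, with pair medians of 0.31, -0.06 and 0.05 and 13 to 14 higher under other scalings. Without the sham array of series D 6 of the 22 were higher and the median was -0.25. Dhcr7, an enzyme of the last step, differed by 0.49 ± 0.41, mostly in series A (1.14). Hypoxia genes had 3 of 16 higher, where 51.9% of all genes were, and a median of -0.12, with pair medians of -0.26, 0.03 and -0.02. Their median stayed negative whichever array was left out, at -0.17 to -0.05. Bnip3, a mitochondrial protein induced by low oxygen, was at 7.17, 6.94 and 6.95 in sham and 6.16, 6.62, 6.99 and 6.37 after iTBS (-0.48 ± 0.33). Its pairs of series C and D differed by 0.06 and -0.59, and series A was lower as well, the same split of A and D from C as for Ate1. Heat shock genes had 11 of 17 higher (median 0.06), with Hspa1a at -0.30 ± 0.32, and circadian clock genes 9 of 16 (median 0.02, and 0.00 or less on the deposited z-scores), with Per3 at 0.37 ± 0.21.

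**Figure D4:**
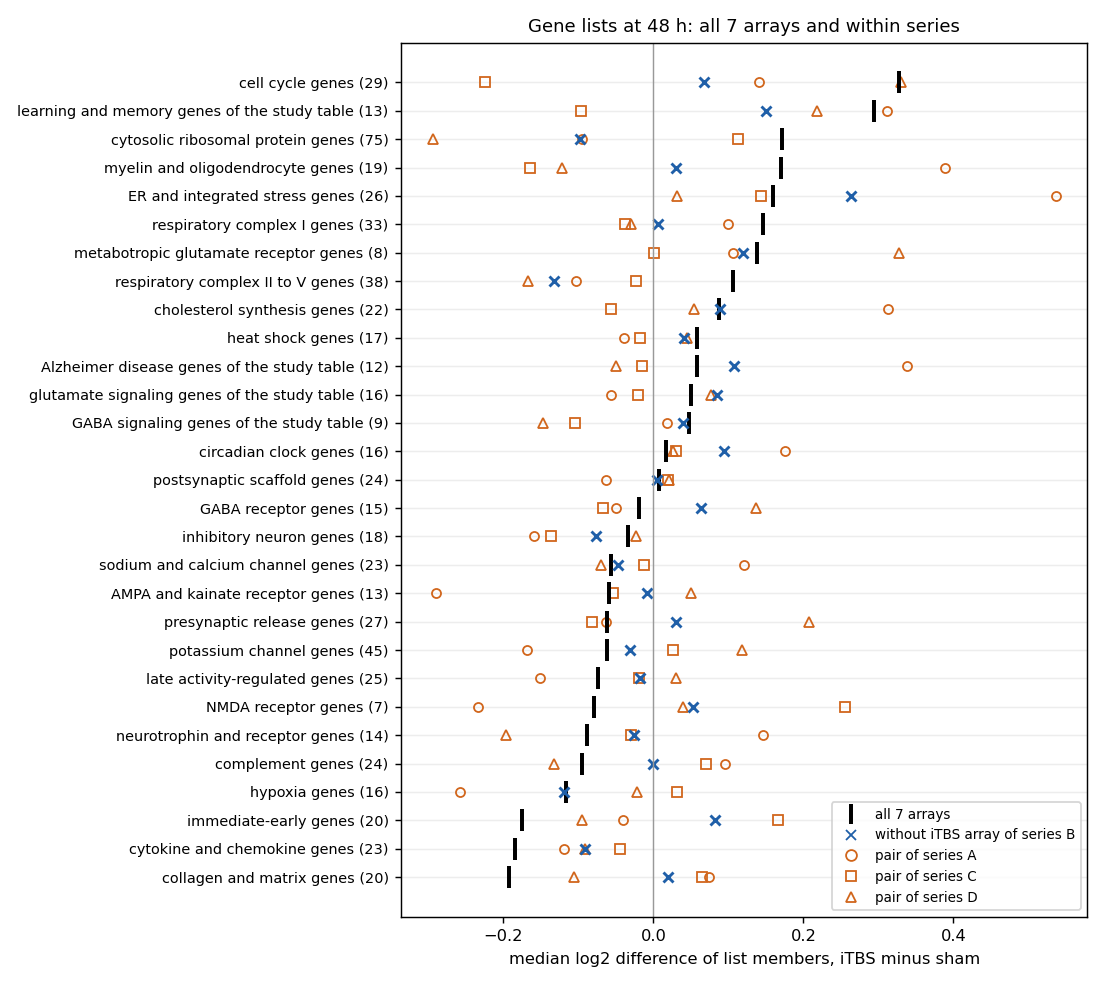
Median log2 difference of the members of each pathway list (number of genes in brackets) over all 7 arrays (black bars), without the iTBS array of series B (blue crosses) and within the pairs of series A, C and D (orange symbols). For ribosomal genes the bar is at 0.17 and the cross at -0.10, for stress response genes they are at 0.16 and 0.26, and the pairs lie on both sides of 0 for most lists.

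The markers fitted neuronal cultures that also held glia. All 10 neuron markers and all 9 excitatory hippocampal neuron markers were well above background in all 7 arrays, as were the 9 astrocyte and the 9 oligodendrocyte and progenitor markers. Summed microarray signal of the neuron markers ran from 168390 to 231050 in sham and from 81309 to 219850 after iTBS, the lowest being the dim array. That of the astrocyte markers ran from 314400 to 427360 in sham and from 188750 to 355290 after iTBS. Sums over different probes do not compare the amounts of 1 cell type with another. The mean scaled level of the neuron markers differed little, 6.47 to 6.72 in sham and 6.36 to 6.78 after iTBS, with 7 of 10 higher and a median difference of 0.09. Tubb3, a neuronal tubulin, differed by 0.43 ± 0.35, and by 0.10 without the series B array. Excitatory markers had 2 of 9 higher (median -0.10, led by the hippocampal factor Zbtb20 at -0.46 ± 0.44) and inhibitory markers 1 of 5 (median -0.16, led by Dlx1 at -0.52 ± 0.80). The inhibitory median was 0.00 with quantile scaling and 0.07 without the sham array of series D.

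Oligodendrocyte markers followed the series and astrocyte markers less so. The mean level of oligodendrocyte and progenitor markers was 4.85, 6.09 and 2.94 in the sham arrays of A, C and D and 5.40, 5.97, 5.99 and 2.78 in the iTBS arrays of A to D. All 9 were higher after iTBS (median 0.18), but the pair medians were 0.53, -0.16 and -0.29 and the median without the iTBS array of series B 0.03. Without the sham array of series D 2 of the 9 were higher and the median was -0.46. Olig1, a factor of the oligodendrocyte lineage, differed by 0.73 ± 0.74, and 17 of 19 myelin and oligodendrocyte genes were higher (median 0.17, 0.03 without that iTBS array and -0.40, with 6 of 19, without that sham array). The mean level of astrocyte markers was 6.99, 6.81 and 6.93 in sham and 7.14, 7.57, 6.85 and 6.98 after iTBS. All 9 were higher (median 0.26), against 6 of 9 and 0.05 without the iTBS array of series B and 8 of 9 and 0.07 without the sham array of series D. The pair medians were -0.01, 0.11 and 0.04, with 4, 6 and 5 of 9 higher in series A, C and D. Gfap, the astrocyte filament protein, ranged from 3.70 to 6.84 in sham and from 4.51 to 7.03 after iTBS (0.38 ± 0.96). It was higher in the pairs by 0.82, 0.42 and 0.19, and in the blocked fit by 0.39 ± 0.25 (adjusted p = 0.65). Gja1, the astrocyte gap junction protein, differed by 0.36 ± 0.21. Apoe, a lipid carrier of astrocytes, stood at 12.9 in the iTBS array of series B and at 11.3 in each of the other 3 iTBS arrays, with sham at 11.1 to 11.5; its difference of 0.45 ± 0.35 was 0.05 without the array at 12.9.

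Genes of dividing cells followed the series too. Cell cycle genes had 27 of 29 higher and a median of 0.33, the highest of the pathway lists, while pair medians were 0.14, -0.22 and 0.33. Without the sham array of series D 1 of 29 was higher and the median was -0.44, without the sham array of series A 29 of 29 were higher and it was 0.93, and without the iTBS array of series B it was 0.07. Their mean level was 4.51, 3.86 and 1.94 in the sham arrays of A, C and D, a range wider than any of the pair differences. Mcm7, of the replication helicase, differed by 0.33 ± 0.41. All 5 markers of dividing cells were higher (median 0.45, 0.07 without the iTBS array of series B and -0.37 without the sham array of series D), led by the progenitor factor Sox2, at 7.93, 8.59 and 7.76 in sham and 8.99, 8.84, 8.73 and 8.02 after iTBS (0.55 ± 0.38). Sox2 was higher in 3 of 3 pairs, by 1.06, 0.14 and 0.26. Over the 5 markers the pair medians were -0.01, -0.20 and 0.26.

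Microglial markers had the lowest median of the lists. Of 9 measured, 2 were higher, with a median of -0.77; 4 were above background in all 7 arrays. Mean levels were -0.47, -1.13 and 0.61 in sham and -1.05, -1.01, -0.93 and -0.79 after iTBS, so the sham arrays of A and D lay above, and that of C below, all 4 iTBS arrays. Summed signal ran from 3249 to 4732 in sham and from 2328 to 4206 after iTBS. Pair medians were -0.49, 0.25 and -1.40, and the median was -0.30 with normexp correction and -0.27 without the sham array of series D. P2ry12, a purinergic receptor of resting microglia, had the smallest p: -0.76, -0.63 and -0.51 in sham and -3.06, -1.17, -0.38 and -1.66 after iTBS. The difference was -0.93 ± 0.44, or -1.08 ± 0.25 in the blocked fit (adjusted p = 0.40), and -0.18 with normexp correction. Its series C iTBS array lay above all sham arrays.

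No inflammatory or matrix gene passed the test, and gene lists were not tested as a whole. Cytokine and chemokine genes had 8 of 23 higher and a median of -0.18, with 9 of the 23 above background in all 7 arrays; among those 9 the median was 0.02, and over the 23 it was 0.07 without the sham array of series D. Tnf, tumour necrosis factor, was above background in 2 of 3 sham and 1 of 4 iTBS arrays, with levels of -2.23, -2.87 and -2.13 against -4.51, -4.26, -4.92 and -2.22 (-1.57 ± 0.74, and -0.24 with normexp correction). Complement genes had 8 of 24 higher (median -0.10, and 0.04 without the sham array of series D); the one with the smallest p, C8b, was above background in 1 of 3 sham and 0 of 4 iTBS arrays, so no fold is given. Collagen and matrix genes had 7 of 20 higher (median -0.19, 0.02 without the iTBS array of series B). Without the sham array of series D 16 of the 20 were higher and the median was 0.42. Col4a1, a basement membrane collagen, stood at 4.76, 4.16 and 4.71 in sham and 3.80, 3.82, 4.30 and 4.18 after iTBS, a difference of -0.52 ± 0.18 with -0.96 and -0.53 in series A and D and 0.14 in C. Endothelial, mural and fibroblast markers had 6 of 11 higher (median 0.04), with Cldn5, Flt1 and Rgs5 above background in no array, and 4 choroid plexus and ependymal markers a median of -0.20, Otx2 leading at -0.42 ± 0.73. Leaving out the sham array of series D brought the endothelial group to 0.33 and the choroid plexus group to 0.27.

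**Figure D5:**
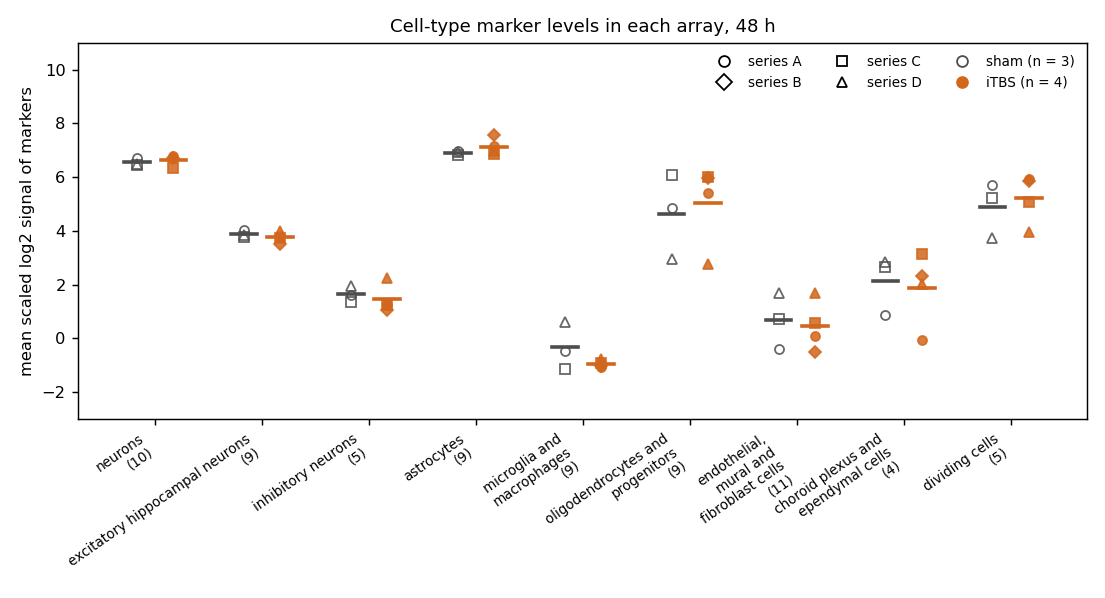
Mean scaled log2 signal (y axis) of the markers of each cell type (number of genes in brackets) in each array, with open grey symbols for sham, filled orange symbols for iTBS, shapes for series and bars for group means. Oligodendrocyte and dividing-cell markers are lowest in both arrays of series D (triangles), and the microglial sham arrays spread from -1.13 to 0.61 around a tight iTBS group.

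Compared with the other protocol, iTBS also gave no passing probe. The 4 iTBS and 4 1 Hz arrays at 48 h each held series A to D. Of 35694 probes 0 (0.0%) had an adjusted p under 0.05 (limma) and 1195 (3.35%) an unadjusted one, 607 higher and 588 lower after iTBS. In the blocked fit, 5879 (16.5%) had an unadjusted p under 0.05 and 0 an adjusted one. The genes with the smallest p were dim in the iTBS group. Cyp2c12, a liver cytochrome, was above background in 0 of 4 iTBS arrays, with levels of -5.37 to -4.33, and in 3 of 4 1 Hz arrays, at -3.48 to -0.03. Cited4, a transcriptional cofactor, was above background in 1 of 4 and 3 of 4, with a difference of -1.82 ± 0.47 (adjusted p = 0.11 with the block). Because both protocols were tested against the same sham arrays, no overlap between them was computed.

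Whether the iTBS difference at 48 h departed from that at 24 h was tested as an interaction. At 24 h both groups held arrays of series B, C and D and none of A, so the change of time also changed the series compared. No probe passed: 0 of 35694 (0.0%) had an adjusted p under 0.05 (limma) and 361 (1.01%) an unadjusted one. LOC102556316, already described among the lower genes at 48 h, had the smallest p. It was at -2.47 ± 0.23 (SD, n = 3) in sham and -3.82 ± 0.80 (n = 4) after iTBS at 48 h, and at -3.68 ± 0.64 (n = 3) and -2.01 ± 0.59 (n = 3) at 24 h. The sham arrays at 24 h were above background in 0 of 3 cases, so the reversed order of the groups rests on signals near the detection limit. H2bu1, a histone gene, was next, with an interaction of -1.64 ± 0.43.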

How the data were processed

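Each array measured Cy3-labelled RNA of 1 culture on a 1-colour Agilent rat oligonucleotide array. The deposited files hold the processed signal intensity of each spot, which per the file headers was extracted with Agilent Feature Extraction 12.0.3.1 on a design annotated to rn4; the authors also deposited z-scores of log2 intensity within each array, on a score scale. Here log2 processed signals of noncontrol spots were averaged per probe, converted to z-scores within each array as in the study's methods, and put back on a log2 scale with the arrays' median SD (4.06). Of 56 arrays 55 were used; 1, in no group described, had a badly placed grid. Probes well above background in at least 3 arrays were kept (35694 of 45598; 420 had no value in some array). Symbols came from RefSeq accessions for 46.3% of probes, giving 13888 genes tested; a gene with several probes is represented by its brightest.

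Groups were compared in limma 3.58.1 (R 4.3.3) with 1 mean for each of 16 groups, two-sided, with Benjamini-Hochberg adjustment over all probes. Series A to D come from the sample numbers in the labels; arrays of the same series correlated at 0.43, 0.28 and 0.67 in their deviations from group means and were treated as pairs in the blocked fits. Alternatives were blocks for series, slide and title number, other scalings, filters and background corrections, and leaving out each array. The planned mean signal was not in the files, and median signals and backgrounds were used for normexp (offset 50). Methods were tested on simulated data. The members and gene lists were chosen with earlier results of these data known. The named genes are, besides passing ones, the 10 higher and 10 lower with the smallest p as described, the member of each list with the smallest p, a fixed set of neuronal, GABA, glutamate and glial genes, and 2 genes for each other comparison. Precision is limited by the number of arrays. Some named genes are not reported here. No sequence is shown.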

Additional observations from a re-analysis of the deposited data

Results flagged for a closer look

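Of 111 values checked for a single array far from the other 3 iTBS arrays (Dixon's test, which chance passes in about 1 of 20), 4 were flagged. The level of Apoe was 12.9 in the iTBS array of series B, with the others at 11.3. The mean level of the cholesterol synthesis genes was 5.26 in the iTBS array of series D, against 6.12 to 6.28 in the others, and the sham array of series D was at 5.24. The mean level of the neuron markers was 6.36 in the iTBS array of series C, against 6.72 to 6.78. The mean level of the inhibitory neuron markers was 2.24 in the iTBS array of series D, against 1.07 to 1.25.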

How the results depend on the processing

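For iTBS against sham, 0 probes passed under every block, scaling, filter and leave-one-out fit run, and 0 members of the gene lists did; the smallest adjusted p was 0.0975, without the sham array of series D. Read as the cutoffs of the study's methods, with the z-ratio as the difference over the SD of all differences, the criteria called 4 probes, all lower; how the z-ratio was formed is not given in full in the sources used here, and dividing by the standard error called 34, all lower. The 4, named after their values were seen, were Cbx7 and 3 probes without a symbol. Counts at an unadjusted p under 0.05, 636 as reported, were 1621 with series as a block, 3056 with a block per series and time point, 1130 without the filter on dim probes, 332 with probes above background on all 7 arrays, 232 with all 56 arrays, and 344 with only the 7 arrays. Within the 7 arrays the replicate block gave 1111 by series and 1461 by title number, with 0 passing in both. Title number 1 pairs the arrays of series A, while numbers 2 and 3 pair arrays of different series. For numbers 1 to 3 the deviations correlated at 0.43, 0.12 and -0.13. Leaving out 1 array gave 423 to 1545, the lowest without the sham array of series A and the highest without the iTBS array of series C, and 1142 without the sham array of series C and 1082 without the iTBS array of series D. For iTBS against 1 Hz, leaving out 1 array gave 0 to 1 passing probes, the 1 being a probe without a symbol (3.23 ± 0.48, adjusted p = 0.0013) without the iTBS array of series D; its unadjusted count, 1195, was 2992 with series as a block, 5879 with a block per series and time point, 1955 with slide as a block, 336 with all 56 arrays and 2111 without the iTBS array of series C. The interaction with 24 h, 361 unadjusted, was 742 with series as a block, 1352 with a block per series and time point, 168 with all 56 arrays, 198 with scaling by the 75th percentile, 716 without the filter, 101 with probes above background on all 7 arrays, 774 without the iTBS array of series C and 549 without that of series D. Of the 71 named genes 60 kept the sign of their difference in all alternatives, and none reversed by more than the spread between arrays. Genes named because their groups did not overlap could not change sign on leaving out 1 array. That count was therefore partly fixed by how the genes were chosen. Of 798 list medians recomputed, 133 moved by more than the spread between pairs. The causes were not tested.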
